A study of Gallus gallus with 6 samples.

Results

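Genes of the cell cycle and of DNA replication were examined in the brain of the stage 29 chick embryo (Gallus gallus), after 6 to 6.5 days in the egg by the labels. Members were all genes whose only symbol in the platform annotation begins with AURK, BUB, CENP or HAUS, or with MCM, CDC, CDK, CKS, ORC, RFC or PLK before a digit, or with CCN, a letter from A to H and a digit. PCNA and TOP2A were added, and the symbols that start with CDC42, and CDC37L1, were left out. This gave 103 of the 13008 genes that the array names by 1 symbol, measured by 195 probe sets. The brightest probe set over the 6 arrays stood for its gene. By the RefSeq annotation of the assembly GRCg7b 9 members lie on the Z chromosome (CDC14B, CDC20B, CDK7, CENPH, CENPK, CKS2, HAUS1, HAUS6 and PLK2) and 94 on autosomes. Some members carry a matching name but belong to none of the complexes and protein families described below. They include MCM3AP in messenger RNA export, CDC5L and CDC40 in splicing and CDC37 beside the chaperone HSP90. A class of their own was kept for 8 such genes, CDC34 among them.

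The study put RNA from 3 pools of male brains and 3 pools of female brains on 1 Affymetrix chicken array each, to ask which genes differ between the sexes in the embryonic brain. Each pool held brains of 5 to 8 embryos sexed genetically, with no treatment or engineered allele, and the strain is not given in the sources used here. Male birds are ZZ, while females are ZW. Values are log2 signals, so a male minus female difference of 1 is a doubling in males. Pools of whole brain mix dividing and postmitotic cells, and fewer cells of a type cannot be told apart from less RNA per cell.

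At this age the ventricular zone of the brain is still full of dividing progenitors, and neurons leave the cycle as they are born. Before S phase the origin recognition complex (ORC) and CDC6 load the MCM helicase on DNA, and at the fork replication factor C (RFC) places the sliding clamp PCNA. Cyclins switch on the cyclin-dependent kinases (CDK), which CKS proteins help to bind their substrates and which CDK7 activates by phosphorylation. In mitosis the CENP proteins build the kinetochore on the centromere, augmin (HAUS) seeds new microtubules inside the spindle, and Aurora, Polo-like and BUB proteins time and guard the separation that the anaphase-promoting complex sets off.

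Over all probe sets Pearson's r was 0.992 to 0.995 between arrays of the same sex and 0.989 to 0.992 between the sexes. The W-linked gene HINTW, a check on the sexing, had signals of 4.63 to 5.96 in male pools and 13.09 to 13.31 in female pools. Of the neuron and progenitor markers that identify the tissue, 16 of 17 and 17 of 17 were above the 95th percentile of signal among viral probe sets, 4.21 and called the viral background here, and the exception was GAP43. Female pool 3 stood apart in HOX genes, which pattern hindbrain and spinal cord: among 13 HOX genes above that background, 6 fell short of the remaining pools' average there by 1.06 to 3.67 log2 units, and the rest lay within -0.10 to 0.15 of it. The calls, and several autosomal differences that this pool moved, are also given without it.

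Of the 103 members 5 passed the test for a sex difference (limma, Benjamini-Hochberg adjusted p under 0.05 over all 37693 chicken probe sets), each of them Z-linked and higher in males. Among all named genes 0.923% passed in either direction, and among all Z genes 17.2% passed, every one higher in males. The 5 were the CDK partner CKS2, the augmin subunit HAUS1, the kinetochore proteins CENPH and CENPK, and the CDK-activating kinase CDK7. The same 5 passed without female pool 3. Of the 94 autosomal members none passed in limma, against 0.0492% of all autosomal genes, and 12 had an unadjusted p under 0.05, 9 higher and 3 lower in males, a share close to the 11.1% of all autosomal genes.

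CKS2, a small protein that docks CDK complexes on their substrates, had signals of 8.80, 8.88 and 8.81 in male pools and 7.76, 7.44 and 7.59 in female pools. It was higher in males by 1.24 (SE 0.09, 95% confidence interval 1.02 to 1.46, 2.35-fold, adjusted p = 0.0021). The lower end of this interval lies above a doubling by less than the SE. The difference was 1.16 (SE 0.09) without female pool 2 and 1.32 (SE 0.09) without female pool 1, the extremes over single pools left out. The male pools were within 0.1 log2 units of each other and far above every female pool. Its autosomal relative CKS1B, of the same family and function, had 11.34, 11.46 and 11.47 in male pools and 11.28, 11.09 and 11.27 in female pools. The male pools of CKS1B also lay above the female pools, but the difference of 0.21 (SE 0.08, interval 0.01 to 0.40) did not pass (adjusted p = 0.453). The intervals of the relatives do not overlap.

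HAUS1 and HAUS6 encode subunits of augmin, the complex that recruits gamma-tubulin to spindle microtubules so that they branch. HAUS1 had signals of 8.12, 8.08 and 8.20 in male pools and 7.05, 7.06 and 7.02 in female pools, higher in males by 1.09 (SE 0.07, 2.13-fold, adjusted p = 0.00141). A second HAUS1 probe set gave 1.13 (SE 0.09) and passed as well. HAUS6 had 8.69, 8.92 and 8.32 in male pools and 7.84, 7.73 and 7.33 in female pools, so the sexes did not overlap although the pools of each sex spread by over 0.5 log2 units. Its difference of 1.01 (SE 0.18) missed the threshold at an adjusted p of 0.0804. Without male pool 3, the lowest male pool, it was 1.17 with an adjusted p of 0.0499, and without any other single pool the adjusted p was 0.133 to 0.268. With the mean over its probe sets the difference was 0.63 (adjusted p = 0.114). Its second probe set gave 0.70 (SE 0.13), and the third, at a signal of 4.13 under the viral background, gave 0.17 (SE 0.09).

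The autosomal augmin genes on the array showed no such separation. HAUS2 had 9.03, 9.004 and 9.05 in male pools and 9.02, 8.78 and 8.81 in female pools. HAUS8 had 5.57, 5.26 and 5.09 in male pools and 5.58, 5.52 and 5.45 in female pools. HAUS2 differed by 0.16 (SE 0.09, interval -0.04 to 0.35), HAUS8 by -0.21 (SE 0.12, interval -0.50 to 0.07) and HAUS3 by -0.06 (SE 0.44, interval -1.07 to 0.95). The sexes overlapped in each of them. HAUS3 varied most within a sex of all autosomal members, with 6.10, 4.80 and 4.08 in male pools against 5.13, 4.93 and 5.09 in female pools, so its interval is wide.

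CENPH and CENPK belong with CENPI and CENPM to a module of the inner kinetochore, the CENP-H/I/K/M group of the constitutive centromere network. CENPH had signals of 9.34, 9.14 and 9.41 in male pools and 8.45, 8.25 and 8.33 in female pools, a difference of 0.95 (SE 0.10, 1.94-fold, adjusted p = 0.00622). CENPK had 8.34, 8.35 and 8.34 in male pools and 7.64, 7.62 and 7.49 in female pools, a difference of 0.76 (SE 0.07, 1.69-fold, adjusted p = 0.00446) whose interval of 0.59 to 0.92 lies below a doubling. In both genes every male pool was above every female pool. The autosomal partner CENPI had 7.52, 7.73 and 7.72 in male pools and 7.41, 7.39 and 7.88 in female pools. CENPM had 6.94, 7.03 and 7.14 in male pools and 7.05, 6.78 and 7.03 in female pools. CENPI, at 0.09 (SE 0.14, interval -0.23 to 0.42), and CENPM, at 0.09 (SE 0.10, interval -0.14 to 0.31), did not pass, and their pools overlapped. Their intervals do not overlap those of CENPH and CENPK. Female pool 3 was the highest pool of CENPI, whose difference without it was 0.25 (SE 0.10).

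CDK7 is the catalytic subunit of the CDK-activating kinase and also phosphorylates RNA polymerase II as a part of the transcription factor TFIIH. Its signals were 8.06, 7.97 and 8.03 in male pools and 7.28, 6.93 and 7.13 in female pools. The difference of 0.91 (SE 0.10, 1.87-fold) passed at an adjusted p of 0.00807, and without male pool 1 it was 0.89 with an adjusted p of 0.0520. The autosomal MNAT1, the assembly factor of the same kinase and no member by name, had 7.38, 7.52 and 7.51 in male pools and 7.29, 7.21 and 7.46 in female pools. Its difference was 0.15 (SE 0.09, interval -0.06 to 0.36), and the sexes overlapped. No other subunit of this kinase was among the genes examined.

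**Figure D1:**
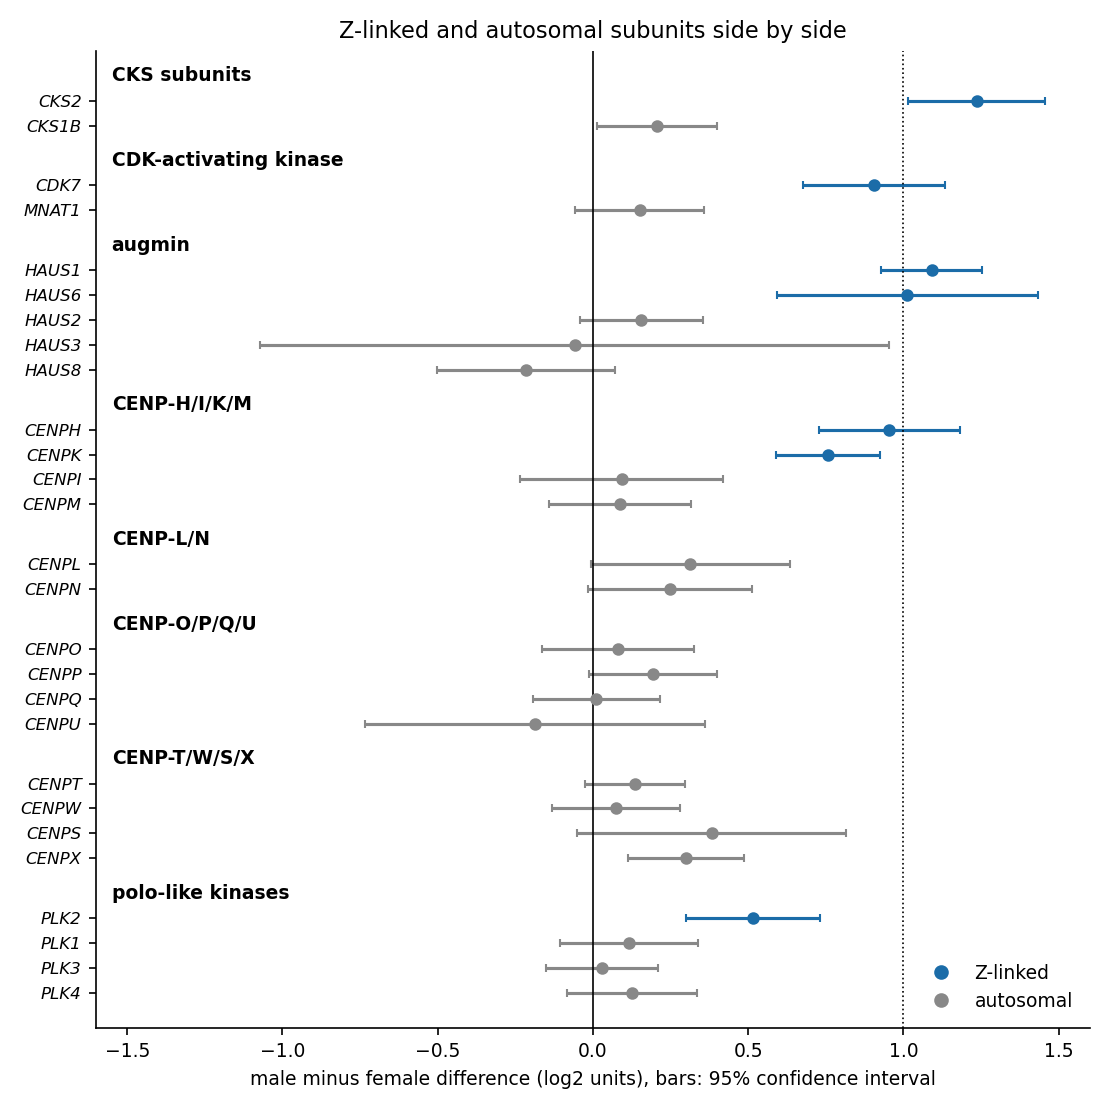
Male minus female differences (x axis, log2 units, points with 95% confidence intervals) of Z-linked genes (blue) and autosomal genes (grey), grouped by complex or family, with MNAT1 added beside CDK7; the dotted line marks a doubling. The 7 Z-linked genes lie between 0.51 and 1.24, and no grey point lies above 0.38, that of CENPS.

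PLK2, a Polo-like kinase of centriole duplication that is also known from synapses in mammals, had signals of 8.61, 8.59 and 8.85 in male pools and 8.24, 8.11 and 8.15 in female pools. The sexes did not overlap, and the difference of 0.51 (SE 0.09, interval 0.30 to 0.73) missed the threshold at an adjusted p of 0.0835. The other 2 probe sets of PLK2 gave 0.48 each (SE 0.12 and 0.13), also without overlap. The autosomal relative PLK1, a main kinase of mitosis, had 9.79, 9.95 and 10.06 in male pools and 9.83, 9.71 and 9.91 in female pools. PLK1 (0.12, SE 0.10), PLK3 (0.03, SE 0.08) and PLK4 (0.12, SE 0.09) had overlapping sexes. The PLK2 interval lies below a doubling and above 0.

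The remaining Z members gave small differences. CDC14B, a dual-specificity phosphatase, had 5.70, 5.71 and 5.82 in male pools and 5.62, 5.65 and 5.64 in female pools, so that the sexes did not overlap at a difference of only 0.11 (SE 0.07, interval -0.06 to 0.27, adjusted p = 0.646). Its 4 dimmer probe sets gave 0.04 to 0.24. CDC20B, a relative of the mitotic activator CDC20, had 3.91, 4.14 and 4.09 in male pools and 3.92, 4.25 and 3.96 in female pools, and its mean was not above the viral background.

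**Figure D2:**
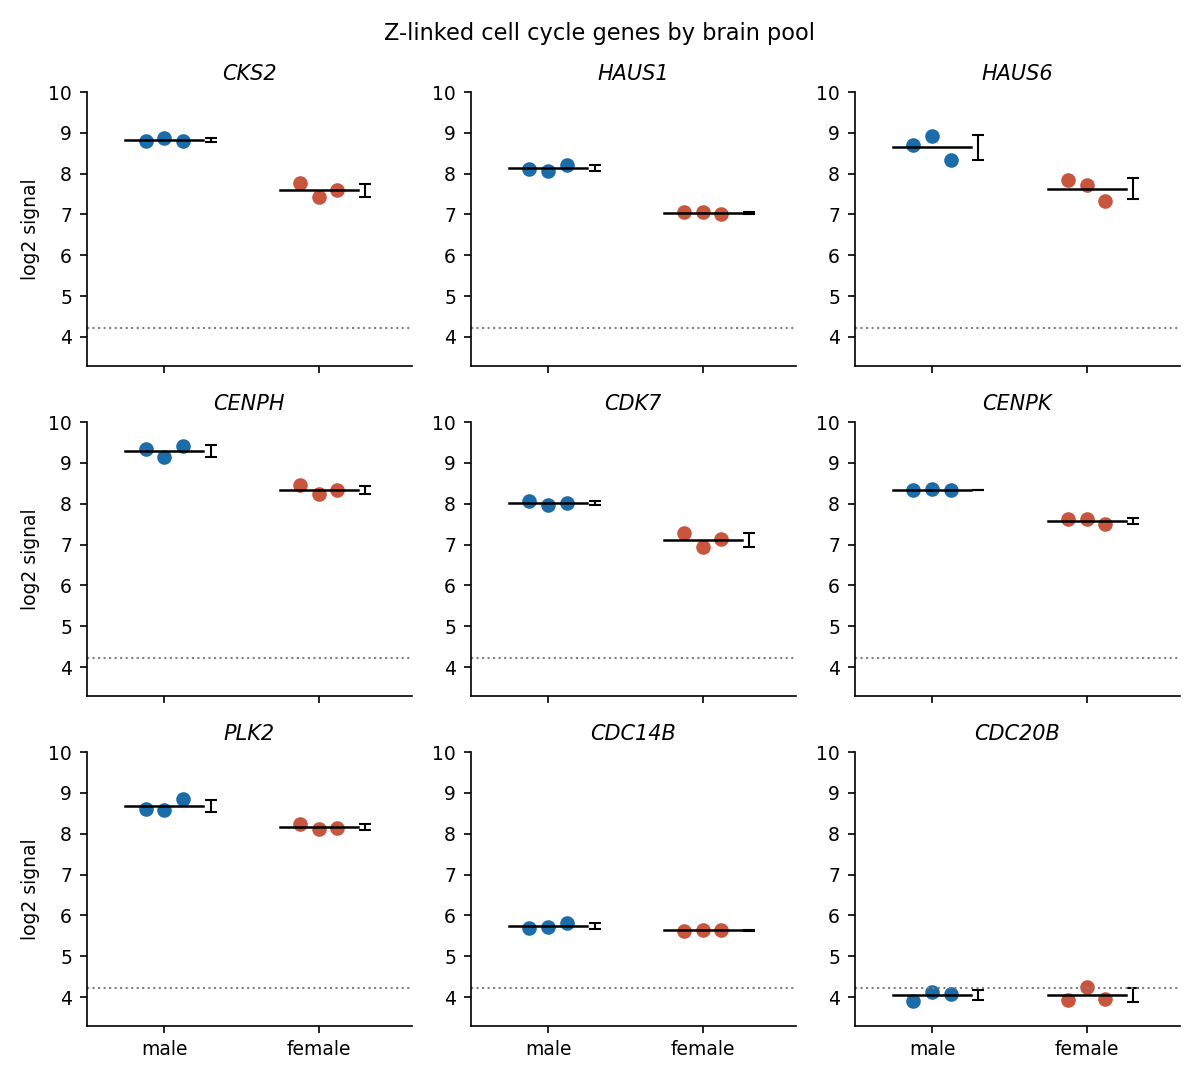
Log2 signal (y axis) of the 9 Z-linked members in the 3 male pools (blue, left) and 3 female pools (red, right) of each panel, with the mean as a line and the SD as a bar; the dotted line is the viral background of 4.21. Male pools lie above female pools in every panel except CDC20B, which lies at the background.

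In all, 8 of the 9 Z members had every male pool above every female pool, against 43.1% of all 605 Z genes, and the opposite order was seen in none of the 9 and in 1.16% of Z genes. The median difference of the 9 was 0.91, with quartiles of 0.51 and 1.01. For all Z genes the median was 0.18. Among genes above the viral background the medians were 0.93 over 8 Z members and 0.30 over 460 Z genes. Every male pool was above every female pool in all 8 of these members and in 52.6% of these Z genes. These are descriptions, since the members were chosen with earlier results known and no test of the set was made. With the mean over all probe sets of a gene in place of the brightest one, the median of the 9 was 0.76.

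**Figure D3:**
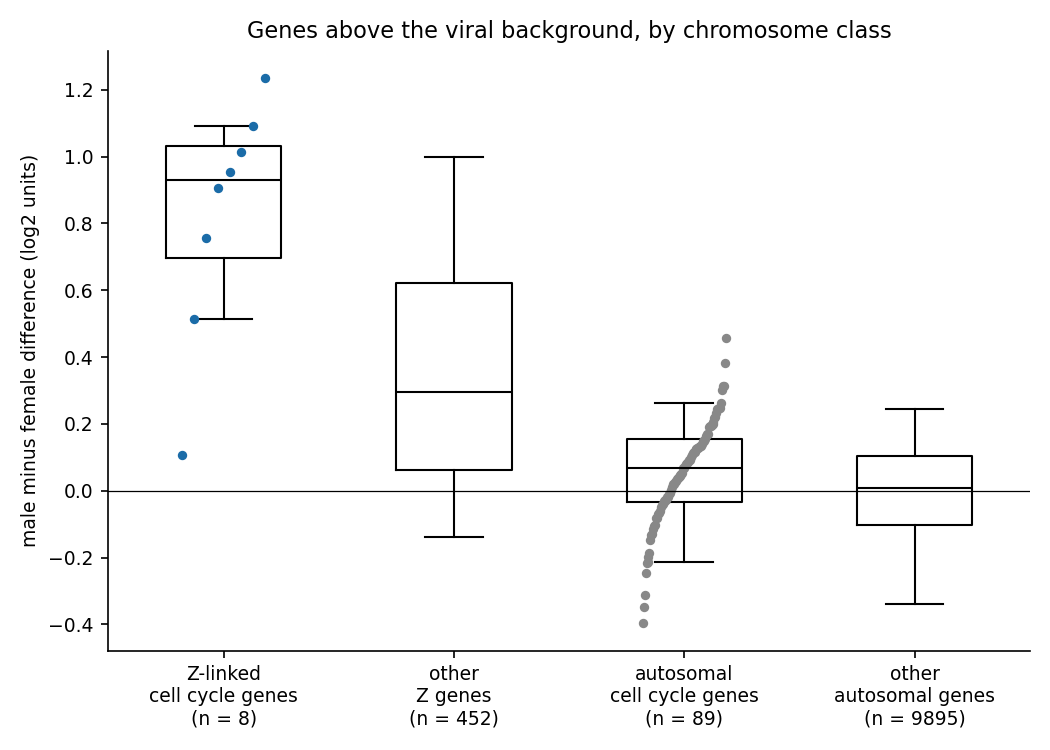
Male minus female differences (y axis, log2 units) of genes above the viral background in 4 classes, with boxes at the quartiles, a line at the median, whiskers at the 5th and 95th percentiles and points for single cell cycle genes. The median of the 8 Z-linked cell cycle genes, 0.93, lies above that of other Z genes, 0.29, and the 89 autosomal ones, at 0.07, lie near other autosomal genes, at 0.01.

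The genes around the Z members on the chromosome gave mixed differences, and members were not tested against them. In RefSeq order CENPH and CDK7 are separated on the array by 1 gene, the mitochondrial ribosomal protein MRPS36, which differed by 1.06. On the outer side of CENPH the zinc transporter SLC30A5 gave 0.74, and on that of CDK7 SERINC5 gave -0.14. PPWD1, next to CENPK, gave 0.87. Over the 10 nearest array genes above the viral background the median difference was 0.07 around CENPH, 0.21 around CDK7 and 0.29 around CENPK, with 3 of 10 passing in each case. Other members were kept among the neighbours. CENPH and CDK7 thus count in each other's sets, which overlap, and the sets of CENPH and CENPK share their lowest value, -0.28. The median was 0.26 around CKS2, with 2 passing, and 0.07 around HAUS6 and 0.12 around HAUS1, with 1 passing each. These 6 members lay above the median of their neighbours. PLK2 at 0.51 had neighbours with a median of 0.38, all above 0 and 3 of them passing. CDC14B and CDC20B were the reverse. CDC14B at 0.11 had neighbours with a median of 0.47, 2 of them passing and CKS2 the highest. CDC20B, at background, had neighbours with a median of 0.35, all above 0 and 3 of them passing.

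The autosomal members had a median difference of 0.07, against 0.01 over all 12207 autosomal genes. The difference was above 0 for 62 of the 94 (66.0%), against 53.2% of all autosomal genes. Centring each array on its autosomal median adds 0.039 to every difference, and the shares become 74.5% and 64.0%. The medians become 0.11 and 0.05, so 0 lies below the median difference of all autosomal genes after centring. In 16 of the 94 all male pools were above all female pools, and in 6 all were below. Among all autosomal genes these orders were found in 10.5% and 7.28%. All these counts rest on the brightest probe set. Among 54 members with several probe sets, Z-linked ones included, the dimmer ones all shared its sign in 30. With the mean over probe sets the median of the autosomal members was 0.05. The 10 autosomal members of smallest p, 7 higher and 3 lower in males, differed by 0.20 to 0.40 log2 units with adjusted p of 0.206 to 0.431, so none of them is a called difference. By pool the deviation of the autosomal members from their own means had a median of -0.004, 0.045 and 0.05 in male pools 1 to 3 and 0.003, -0.08 and -0.03 in female pools 1 to 3. Male pool 1 thus lay below female pool 1, and the sexes overlapped.

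**Figure D4:**
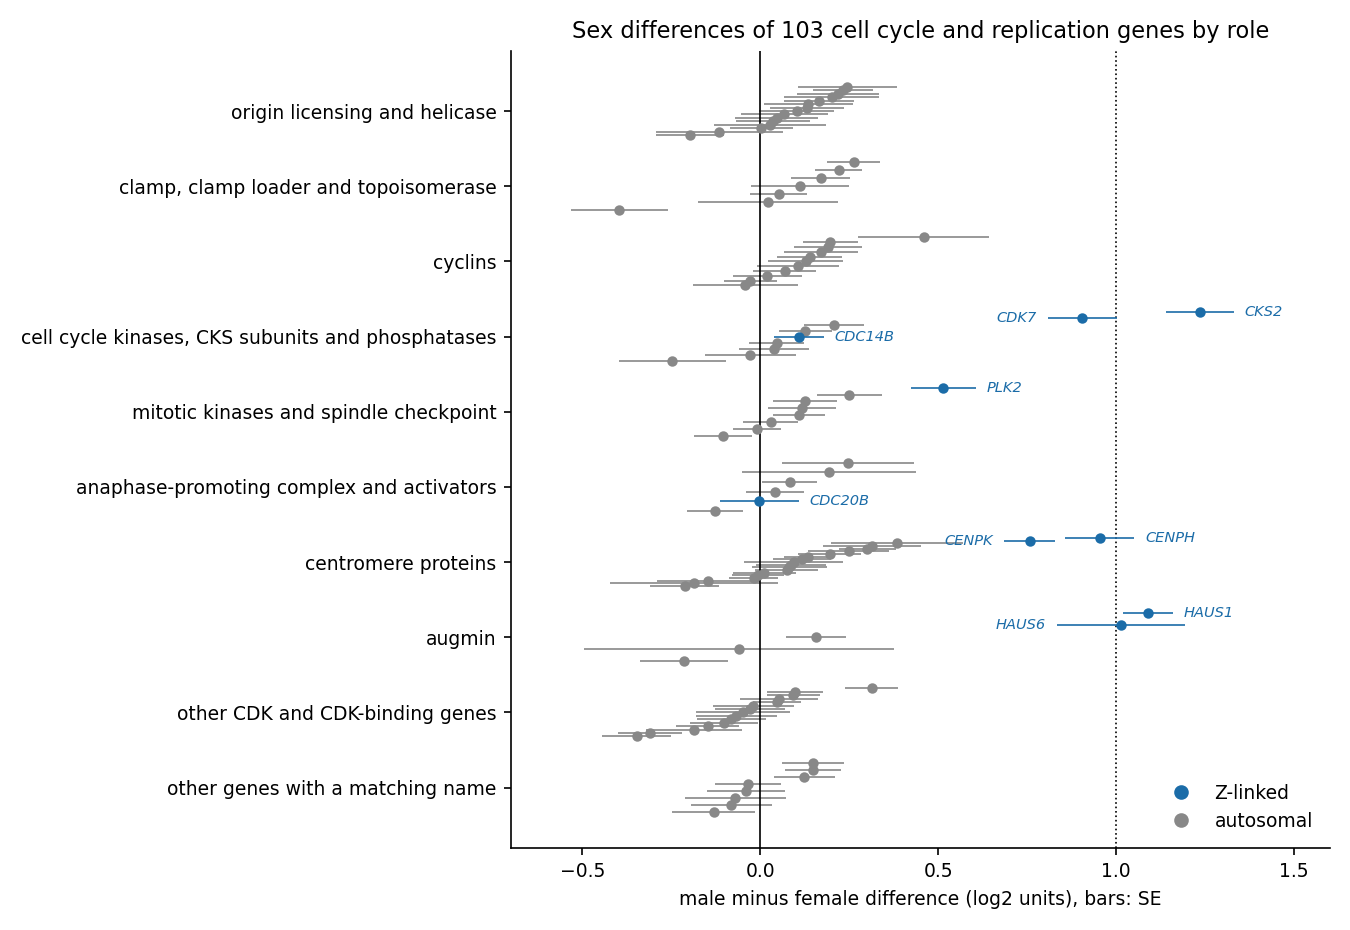
Male minus female differences (x axis, log2 units, bars are SE) of the 103 members by role, Z-linked in blue with names and autosomal in grey; the dotted line marks a doubling. The autosomal genes lie between -0.40 and 0.46 in every role.

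Genes of origin licensing and the replicative helicase were all autosomal, and none of the 15 passed in limma. Against 11.1% of all autosomal genes, 1 of these 15 had an unadjusted p under 0.05. Their median was 0.10, and 13 were above 0, beside 53.2% of all autosomal genes. By pool their median deviation was -0.06, -0.008 and 0.20 in male pools 1 to 3. It was 0.03, -0.10 and -0.001 in female pools 1 to 3, so the sexes overlapped. ORC6, a subunit of the origin recognition complex, had 8.12, 8.05 and 8.22 in male pools and 7.77, 7.97 and 7.94 in female pools, a difference of 0.23 (SE 0.09, unadjusted p = 0.0278, adjusted p = 0.407). The pools of ORC6 did not overlap, and its second probe set gave 0.30. ORC4 had 10.01, 10.12 and 10.15 in male pools and 10.02, 10.004 and 9.52 in female pools, and female pool 3 alone stood low. Its difference was 0.24 (SE 0.14) with this pool and 0.08 (SE 0.09) without it. Over the 4 helicase core subunits among the members the signs were mixed, and MCM4 and MCM7 were not among them. MCM5, at 0.22 (SE 0.12), MCM2, at 0.07 (SE 0.12), and MCM6, at 0.10 (SE 0.11), were on the positive side, while MCM3, at -0.20 (SE 0.09), had every male pool below every female pool and was at -0.12 (SE 0.09) without female pool 3.

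At the fork PCNA, the sliding clamp, had 11.82, 12.05 and 11.89 in male pools and 11.79, 11.72 and 11.73 in female pools, a difference of 0.17 (SE 0.08, adjusted p = 0.535). All 5 RFC subunits of the clamp loader had a positive difference by the brightest probe set, from 0.02 for RFC1 to 0.26 for RFC4. RFC4 had 10.10, 9.97 and 10.03 in male pools and 9.82, 9.80 and 9.70 in female pools (SE 0.07, adjusted p = 0.290). RFC2 had 9.66, 9.68 and 9.70 in male pools and 9.48, 9.45 and 9.44 in female pools, a difference of 0.22 (SE 0.07, adjusted p = 0.310). Neither RFC4 nor RFC2 overlapped between the sexes. In all 3 RFC genes with several probe sets the dimmer ones had the opposite sign. They gave -0.47 (SE 0.30) at a signal of 4.56 for RFC2, -0.06 at 2.76, under background, for RFC4, and -0.16 (SE 0.19) and -0.05 (SE 0.08) for RFC1.

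TOP2A, the topoisomerase that untangles replicated chromosomes and peaks in G2 and mitosis, went the other way. It had 8.49, 8.74 and 8.89 in male pools and 8.89, 9.11 and 9.31 in female pools, so the highest male pool and the lowest female pool nearly met. The difference was -0.40 (SE 0.14, interval -0.71 to -0.08, adjusted p = 0.372), the most negative of the 94 autosomal members. The second TOP2A probe set gave -0.45 (SE 0.16), again with no overlap. Neither probe set passed, and without female pool 3 the brighter one gave -0.30 (SE 0.14).

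Cyclins had a median difference of 0.13 over 11 genes, 9 of them above 0, beside 53.2% of all autosomal genes. None passed in limma, and 2 had an unadjusted p under 0.05, beside 11.1% of all autosomal genes. The B-type cyclin listed as CCNB1, for which RefSeq gives CCNB2 as a synonym, had 11.69, 11.86 and 11.82 in male pools and 11.60, 11.54 and 11.64 in female pools, a difference of 0.20 (SE 0.08, adjusted p = 0.431). CCNG2, an unusual cyclin tied to cell cycle arrest, had the largest difference of any autosomal member, 0.46 (SE 0.18). Its pools overlapped, through female pool 3 only, and its second probe set gave -0.04. Without female pool 3 the brighter probe set of CCNG2 gave 0.64 (SE 0.16) and did not pass in limma (adjusted p = 0.329). The G1 cyclins CCND1 (-0.04, SE 0.15), CCND2 (0.14, SE 0.09) and CCND3 (0.07, SE 0.09) and the S phase cyclin CCNA2 (-0.03, SE 0.07) did not pass. Without female pool 3 CCND1 gave -0.15 (SE 0.15) and CCND2 0.07 (SE 0.09).

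CDK1, the kinase that drives entry into mitosis, had 10.77, 10.88 and 10.71 in male pools and 10.69, 10.65 and 10.63 in female pools. Its male pools lay just above its female pools, by 0.13 on average (SE 0.07, interval -0.05 to 0.30, adjusted p = 0.606). The gene named AURKB, an Aurora kinase, had 9.64, 9.52 and 9.62 in male pools and 9.48, 9.35 and 9.20 in female pools, a difference of 0.25 (SE 0.09, adjusted p = 0.406), or 0.18 (SE 0.09) without female pool 3. BUB3, of the spindle checkpoint, had 11.55, 11.61 and 11.489 in male pools and 11.47, 11.37 and 11.487 in female pools, so that the sexes just failed to overlap. It differed by 0.11 (SE 0.07), and its partners BUB1 and BUB1B gave -0.01 (SE 0.07) and -0.10 (SE 0.08). CDC20, the activator of the anaphase-promoting complex, had 10.03, 10.25 and 10.13 in male pools and 10.10, 10.03 and 10.16 in female pools, a difference of 0.04 (SE 0.08). Among subunits of that complex CDC27 was the only one with sexes that did not overlap, at -0.13 (SE 0.08), and none passed.

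The 17 autosomal CENP genes had a median of 0.09, with 12 above 0, beside 53.2% of all autosomal genes. None passed in limma, and CENPX alone had an unadjusted p under 0.05, beside 11.1% of all autosomal genes. By pool the median deviation of the 17 was -0.03, 0.03 and 0.11 in male pools 1 to 3. It was 0.02, -0.13 and -0.04 in female pools 1 to 3, so the sexes overlapped. CENPX, a histone-fold protein that works with CENPS at the kinetochore and in the Fanconi anemia pathway, had 8.59, 8.77 and 8.75 in male pools and 8.40, 8.34 and 8.47 in female pools. The pools did not overlap at a difference of 0.30 (SE 0.08, adjusted p = 0.261). CENPS gave 0.38 (SE 0.19) with pools that overlapped. CENPL (0.31, SE 0.14) and CENPN (0.25, SE 0.11), a pair of the network that binds the CENP-A nucleosome, overlapped as well. CENPV gave 0.12 (SE 0.08), with male pools at 9.32, 9.24 and 9.22 and female pools at 9.21, 9.02 and 9.21, and CENPT gave 0.13 (SE 0.07), both without overlap. CENPF, a large kinetochore protein, gave -0.21 (SE 0.10) at a signal of 4.49, close to background. CENPJ and CENPU had means under background, as had CCNA1, CDK3 and CDK18.

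Over all autosomal genes the median was 0.01, or 0.05 after centring. For the 15 CDK and CDK-binding genes outside the core cycle it was -0.05, or -0.009 after centring. Of these 15 genes 10 were below 0, or 8 after centring. CDK12 and CDK13, a pair of kinases of elongating RNA polymerase II, were the lowest. CDK13 had 6.95, 7.21 and 7.19 in male pools and 7.37, 7.57 and 7.45 in female pools, a difference of -0.35 (SE 0.10, adjusted p = 0.286). CDK12 had 6.35, 6.44 and 6.50 in male pools and 6.64, 6.88 and 6.70 in female pools, a difference of -0.31 (SE 0.09, adjusted p = 0.297). All male pools lay below all female pools in both genes, and neither passed. CDK5RAP1, an enzyme that modifies transfer RNA, had the smallest p of the autosomal members. It had 8.48, 8.40 and 8.58 in male pools and 8.15, 8.21 and 8.16 in female pools, a difference of 0.31 (SE 0.08, adjusted p = 0.206), and its second probe set gave 0.26 (SE 0.18). The 8 genes in the class of matching names had a median of -0.04, which centring turned to 0.002. Of these MCM3AP, with 9.55, 9.32 and 9.73 in male pools and 9.52, 9.62 and 9.71 in female pools, gave -0.08 (SE 0.11).

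Across the 94 autosomal members the difference was lower in genes of longer genomic span, at a Spearman's rho of -0.49, beside -0.35 over 9984 autosomal genes above background. Genes measured on the same arrays are not independent, so this is a description. In the span classes that follow, other genes were limited to those above background, while members were not. In the shortest genes, with spans up to 7.6 kb, 30 of 32 members were above 0 with a median of 0.12, against 70.2% of 2752 other genes with a median of 0.07. In the longest, over 19.3 kb, 12 of 31 members were above 0 with a median of -0.03, against 37.9% of 4485 other genes with a median of -0.05. The lower quartile of other genes was -0.07 in the middle class, where TOP2A lies, and -0.17 in the longest, where CDK12 and CDK13 lie, so all 3 were below it. CENPP spans 118.9 kb and differed by 0.19 (SE 0.09), above the upper quartile of 0.05 for the longest class, without passing. Without female pool 3 it gave 0.12 (SE 0.09). Span moved with the sign of the autosomal differences, and its part in them was not tested further.

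**Figure D5:**
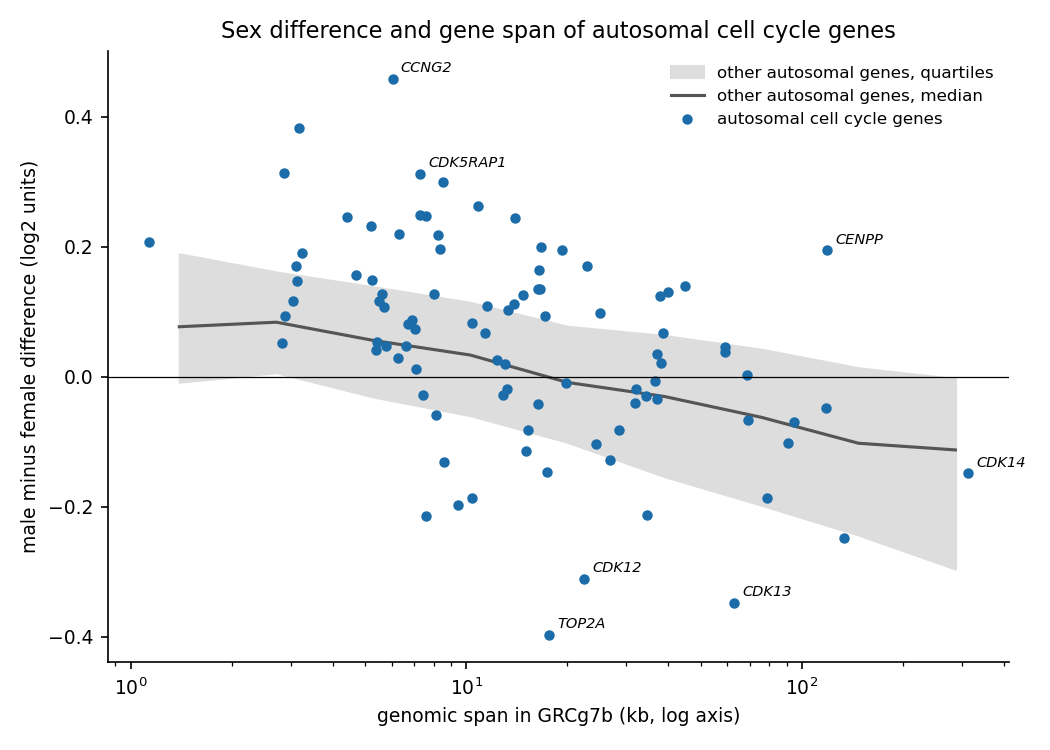
Male minus female difference (y axis, log2 units) of the 94 autosomal members (blue points) against the genomic span of the gene (x axis, kb, log scale), with the median (line) and quartiles (band) of 9895 other autosomal genes above background. Both are lower in longer genes, and TOP2A, CDK12 and CDK13 stand below the band.

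Markers of cell types are given beside the autosomal differences, and their part in those was not tested. Over all autosomal genes 53.2% were above 0, or 64.0% after centring. Median span was 44.7 kb for neuron, 7.7 kb for progenitor, 23.8 kb for mesenchymal and 4.5 kb for muscle markers. Among other autosomal genes above background 37.9% were above 0 over 19.3 kb and 70.2% up to 7.6 kb. The part of span in the marker signs was not tested. NES, the filament protein nestin of progenitors, was the only marker that passed, at -0.55 (SE 0.08, adjusted p = 0.038). For 17 markers of postmitotic neurons the log2 of the summed signal was 14.59 to 14.74 in male pools and 14.80 to 15.00 in female pools, with no overlap. Of the 17, 13 had a negative difference, or 11 after centring. For 17 progenitor markers the sum was 14.41 to 14.49 in male pools and 14.48 to 14.61 in female pools, which overlap slightly, and 14 had a negative difference, or 12 after centring. For 10 red blood cell genes it was 14.25 to 14.75 in male pools and 13.91 to 14.55 in female pools, with 7 above 0, beside the 53.2% above 0 of all autosomal genes.

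The mesenchymal sum was 11.04 to 11.08 in male pools and 11.18 to 11.33 in female pools, with no overlap, although 9 of its 12 genes had a positive difference. Most of this sum came from the brightest gene of the list, which had a mean signal of 10.84. The muscle sum was 8.20 to 8.23 in male pools and 8.07 to 8.16 in female pools, also with no overlap, and 10 of its 12 genes were above 0. Over all autosomal genes 53.2% were above 0. The endothelial and microglial lists had medians of 0.01 and -0.04, and their sums overlapped. Of endothelial, microglial, mesenchymal and muscle markers 9 of 11, 8 of 10, 7 of 12 and 7 of 12 were above the viral background. The microglial markers PTPRC and SPI1, the endothelial ERG and FLT1, the meningeal LUM and PDGFRA and the muscle MYOD1 were among those under it.

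Other genes of the same pathways, from 4 lists outside the naming rule, gave 1 further call. In the checkpoint list 1 of 18 passed in limma, beside 0.923% of all named genes and 17.2% of Z genes. In that list 3 had an unadjusted p under 0.05, all higher in males, namely the Z-linked RAD1 and RAD17 and the autosomal HUS1. Such a p was found in 11.1% of all autosomal genes and in 261 of 605 Z genes. The median of the list was 0.08, or 0.06 over its 16 autosomal genes. The gene that passed was the Z-linked RAD1, a part of the DNA damage clamp. RAD1 had 8.11, 8.08 and 8.41 in male pools and 7.15, 6.79 and 7.16 in female pools, a difference of 1.17 (SE 0.13, adjusted p = 0.0101). Among 36 genes of the fork and of nucleotide supply none passed in limma, and the median was 0.04. Of these, 3 had an unadjusted p under 0.05, beside 11.1% of all autosomal genes. The DNA polymerase epsilon subunit POLE2 had 10.49, 10.58 and 10.55 in male pools and 10.25, 10.10 and 10.25 in female pools, a difference of 0.34 (SE 0.08, adjusted p = 0.169), and the primase PRIM1 had 7.58, 7.50 and 7.71 in male pools and 7.43, 7.11 and 7.35 in female pools, a difference of 0.30 (SE 0.10). Neither overlapped between the sexes.

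Of 27 genes of G1/S control none passed in limma, and the median was 0.00. An unadjusted p under 0.05 was found for 1 of them, beside 11.1% of all autosomal genes. The growth factor-responsive regulator MYC had 6.50, 5.98 and 6.35 in male pools and 6.65, 6.73 and 6.80 in female pools, a difference of -0.45 (SE 0.13, adjusted p = 0.307). E2F5, a transcription factor that acts with the retinoblastoma family, had 7.82, 7.74 and 7.84 in male pools and 7.87, 8.01 and 8.01 in female pools, a difference of -0.17 (SE 0.08). All male pools lay below all female pools in both. Of 48 genes of the mitotic apparatus none passed in limma, and 3 had an unadjusted p under 0.05, beside 11.1% of all autosomal genes. The median of the 48 was -0.03, or 0.01 after centring. The median over all autosomal genes was 0.01, or 0.05 after centring. NUF2, of the NDC80 complex that holds microtubules at the kinetochore, had 6.17, 6.23 and 8.45 in male pools and 8.79, 9.36 and 8.80 in female pools. Its difference of -2.03 (SE 0.56, adjusted p = 0.277) rested on male pools 1 and 2, while male pool 3 lay within 0.4 of the lowest female pool. MIS12, of the outer kinetochore, had 6.33, 6.31 and 6.25 in male pools and 6.11, 5.65 and 6.08 in female pools, a difference of 0.35 (SE 0.13) with no overlap that did not pass. The other Z-linked genes of the 4 lists gave smaller differences than RAD1, and none passed. They were SMC2 at 0.62 (SE 0.29) and SKP2 at 0.14 (SE 0.12), both with overlapping sexes, and RAD17 at 0.27 (SE 0.08). CDKN2A gave 0.16 (SE 0.07) and CDKN2B 0.06 (SE 0.07), at signals under background. The median over all Z genes was 0.18.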

How the data were processed

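The deposited table holds a log2 value for each probe set on each array. The submitters' processing notes name RMA and affy without versions. RMA equalises the arrays, so a change shared by most genes would be removed, and it gives no detection call. Values ran from 2.28 to 14.1 with array medians of 4.84 to 4.87, as log2 signals do. Precision is limited by the number of arrays. The p-values measure the spread between pools, not between embryos.

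Of 38535 probe sets, 153 controls and 689 viral or other non-chicken ones were left out, and 37693 were fitted in limma 3.58.1 (R 4.3.3; lmFit, eBayes) with sex as the only term. Tests were two-sided, and p-values were adjusted by Benjamini-Hochberg at a threshold of 0.05. Background was the 95th percentile over the mean signals of viral probe sets. Gene IDs of 26851 of 27166 probe sets with 1 symbol matched RefSeq, which gave chromosome, order and span, and 177 named several genes and 10350 none. All 103 members matched. In the main fit each difference was taken within a single probe set. The summed signals of marker lists add different probe sets of a pool, so bright genes weigh most in them. The fit was tested on simulated data with the spread of each probe set and known changes in 50 probe sets per size. It called 22% of changes of 0.5 log2 units, 90% of those of 1 and 96% of those of 2, with 7 false calls. A difference of 0.5 or less can thus be missed often, and not passing does not show equal sexes.

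The members and gene lists were chosen with earlier results of these data known. Values by pool were given for Z members, members that passed, the 10 autosomal members of smallest p, the brightest of each family and complex partners, and from each other pathway list for genes that passed or the 2 of smallest p. SLC30A5, MRPS36, SERINC5 and PPWD1 were named after their values were seen. Alternatives were trend and robust eBayes, array weights, a filter on dim probe sets, the replicate number as a block, leaving out each pool, centring on autosomal genes and the mean over probe sets.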

Additional observations from a re-analysis of the deposited data

How the results depend on the processing

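The 5 members that passed also passed with array weights, a filter on dim probe sets, centring on autosomal genes, the mean over probe sets and without any pool except male pool 1 (4 passed, without CDK7). No autosomal member passed under any of these alternatives. HAUS6 was added with trend and robust eBayes (adjusted p = 0.0455), with the replicate number as a block (adjusted p = 0.0137) and without male pool 3, giving 6 members each time. Same-numbered pools deviated together at r = 0.01, 0.15 and 0.32, which does not show that numbers pair the samples, and the block gave 245 probe sets over the array, against 209.

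Leaving out a pool gave 113 (without female pool 2) to 161 probe sets over the array, with 129 without female pool 3 and 130 without male pool 1. The median of the Z members then ran from 0.82 to 0.99 and that of autosomal members from 0.029 to 0.093, lowest in both without female pool 2. Centring moved the autosomal median to 0.11. The mean over probe sets gave 0.76 for the Z members and a Z minus autosomal gap of 0.70, against 0.84. CDC20B, at background, turned to 0.036 with centring, 0.024 with the mean over probe sets and ran from -0.065 to 0.10 without single pools. RFC2 turned to -0.13 with the mean over probe sets, since its dimmer probe set has the opposite sign.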
